A study of Elopichthys bambusa with 12 samples.

Results

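This report describes 60 assembled liver transcripts of the yellowcheek carp, Elopichthys bambusa, a fish-eating cyprinid of fresh waters. Their levels were higher in fish fed for 28 days than in fish of the other 3 groups. These transcripts were 60 of the 42353 features in the deposited tables. Members were chosen by measured level, in CPM, which is the count of a feature relative to the total of its library. The fed 28-day mean had to be at least 20 CPM and at least 2 times each of the other group means. Each fed 28-day library had to lie above all other 9 libraries. The fed 8-day mean had to lie within 1.5 times of the mean of the 6 fasted libraries, in either direction. The levels in fed 28-day livers against the others therefore describe the choice, and no test was made on them.

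The study set a fast of 8 or 28 days against continued feeding on a commercial diet given 2 times a day. It held 3 liver libraries in each of 4 groups, which are called fed 8-day, fasted 8-day, fed 28-day and fasted 28-day here. The labels tell neither the strain, age and sex of the fish nor whether a library came from 1 fish or a pool. Total estimated counts per library ran from 16785827 to 19901335, and the lowest level of a member in a fed 28-day library rested on 175 counts. Across the features tested, fed 8-day livers were set off from the other 9 livers, with a mean correlation of log2 levels of 0.80 (27 pairs) against 0.89 among those 9 (36 pairs). Among the fasted livers, replicate 2 at 8 days and replicates 2 and 3 at 28 days lay together (mean 0.93 within these, 0.94 within the other 3 and 0.90 between them).

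The liver of a fed fish takes up absorbed nutrients, stores them as glycogen and fat, and makes most proteins of the blood plasma. In a fast it turns to releasing glucose and burning fat, and many genes for growth and storage are known to be transcribed less. Both fed groups were on the same diet, and a low level in the fed 8-day group was part of the choice of these features. The features were named by a de novo assembly, in which overlapping reads are joined into transcripts without a genome. Their identifiers look like those of the assembler Trinity, and the files do not pair them with gene names, so no role is given for any of them. For the same reason the liver label could not be checked against defining markers. Members are called below by identifier in 5 cases and otherwise by their length in nucleotides.

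The 60 features stood together at 0.646%, 0.766% and 0.805% of all counts in the 3 fed 28-day libraries. In the fed 8-day libraries they held 0.189%, 0.203% and 0.200%. The fasted 8-day libraries gave 0.190%, 0.213% and 0.236%, and the fasted 28-day libraries 0.194%, 0.213% and 0.207%. The 9 libraries outside the fed 28-day group lay between 0.189% and 0.236%, where the rule itself kept the fed 8-day means close to the fasted mean. The group means were 0.739% ± 0.083 (SD, n = 3) in fed 28-day, 0.197% ± 0.008 in fed 8-day, 0.213% ± 0.023 in fasted 8-day and 0.205% ± 0.010 in fasted 28-day livers. In bulk tissue, fewer cells of a type and less RNA per cell cannot be told apart, and this holds for all levels given here. Days of feeding, sampling day and any unlabelled difference between the fed groups cannot be told apart either.

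**Figure D1:**
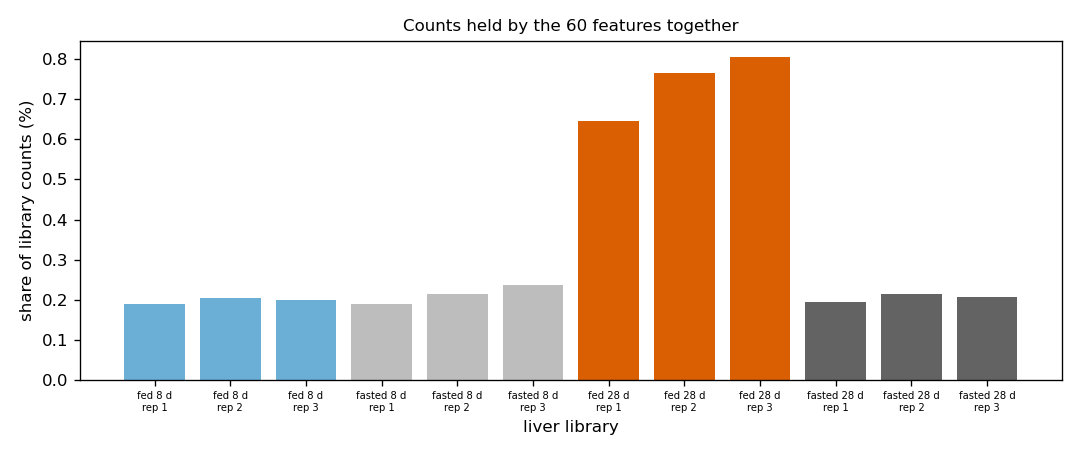
Share of all estimated counts (percent, vertical axis) held together by the 60 features in each of the 12 liver libraries (bars, coloured by group). The 3 fed 28-day bars run from 0.646% to 0.805% and the other 9 from 0.189% to 0.236%.

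The choice can be followed step by step. Of 42353 features, 2783 reached 20 CPM in fed 28-day livers, and 162 of these were at least 2 times each other group mean. In 151 of the 162 every fed 28-day library lay above the other 9. The fed 8-day mean fell within the band around the fasted mean for 60 of the 151, above it for 24 and below it for 67. This split around the band was not counted over other features, so nothing particular to features that peaked in fed 28-day livers is read from it. The same rule with the fed groups exchanged gave 512 features high only in fed 8-day livers. A mirrored rule, with at least 20 CPM in each other group, gave 38 features low only in fed 28-day livers.

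The list changed when either set of libraries that stood apart was left out. Without those 3 fasted libraries (an alternative added with the values in view) it gave 59 features, of which 38 were among the 60. With the fed 8-day libraries not used at all it gave 324 features. That alternative only drops conditions, so it had to hold all 60 and could not give fewer.

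Features near the limits differed little. The lowest fed 28-day means inside the limit were 20.8 and 22.6 CPM, and the nearest ones outside were 18.99 and 18.9 CPM. The smallest ratios to the highest other mean inside were 2.003 and 2.01, and the nearest outside were 1.98 and 1.96. For the weakest member the lowest fed 28-day library was 1.04 times the highest other library. The single feature left out for overlap alone had a ratio of 0.92. The fed 8-day mean ran from 0.67 to 1.47 times the fasted mean in the members, and the nearest features outside the band lay at 0.66 and 1.53.

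Levels in fed 28-day livers spanned a wide range. The means ran from 20.8 to 561 CPM with a median of 64.1 CPM. There were 7 members at 300 CPM or more, 14 between 100 and 300, 18 between 50 and 100, and 21 under 50 CPM. The 7 most abundant held 41.2% of the members' summed fed 28-day level and the 21 least abundant 9.06%. Per length of transcript, as the deposited FPKM (fragments per kilobase of feature, relative to library size), the means ran from 5.55 to 303 with a median of 34.3 FPKM. The median over all 2783 features of at least 20 CPM in fed 28-day livers was 30.9 FPKM, so the members were of middling level among well expressed transcripts.

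The member with the highest level per length was TRINITY_DN14754_c2_g3_i1_1, a transcript of 1834 nucleotides at 303 ± 21.9 FPKM (SD, n = 3) in fed 28-day livers. It stood at 554, 516 and 613 CPM in the fed 28-day libraries. In the fed 8-day libraries it had 89.6, 91.1 and 124 CPM, in the fasted 8-day libraries 90.3, 79.8 and 71.8 CPM, and in the fasted 28-day libraries 82.4, 59.6 and 56.4 CPM. All 3 fed 28-day libraries were thus far above the rest, and even the lowest was 4.16 times the highest other library. The fed 28-day mean was 5.52 times the fed 8-day mean, the highest of the others.

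Next per length came 2 short members with smaller ratios. A transcript of 948 nucleotides was at 210 ± 34.3 FPKM in fed 28-day livers and at 57.8 ± 7.84, 79.3 ± 4.48 and 73.7 ± 17.4 FPKM in fed 8-day, fasted 8-day and fasted 28-day livers. A transcript of 844 nucleotides was at 150 ± 23.9 FPKM against 50.9 ± 2.58, 63.9 ± 2.74 and 56.5 ± 17.3 FPKM in the same order. In both, fed 8-day livers had the lowest mean of the 4 groups.

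**Figure D2:**
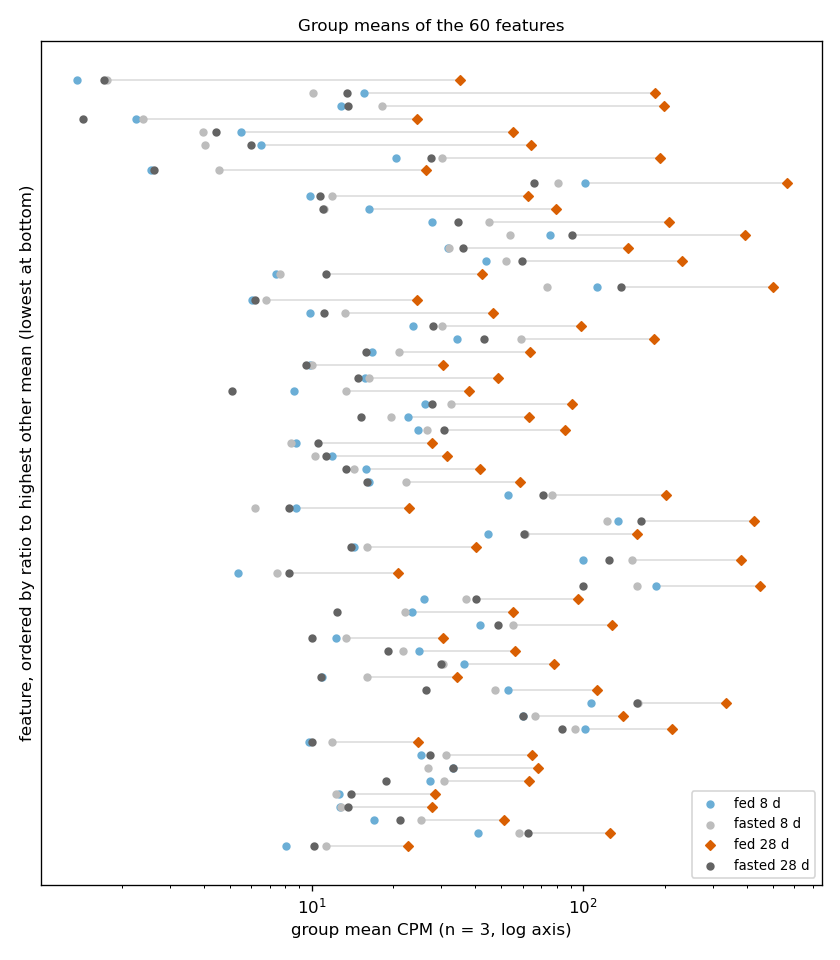
Group mean level in CPM (log axis, n = 3 each) of the 60 features, each on a line of its own and ordered by the ratio of the fed 28-day mean (diamond) to the highest other mean (circles for the other 3 groups, line between them). Ratios run from 2.003 at the bottom to 19.98 at the top, and the rule kept the fed 8-day mean close to the fasted mean.

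Most of the 60 features were high by a modest factor. The ratio of the fed 28-day mean to the highest other mean had a median of 2.63, and 37 members were under 3. A further 9 lay between 3 and 4, 8 between 4 and 8, and 6 at 8 or more. Against each group on its own, the median ratio was 3.48 to fed 8-day, 2.95 to fasted 8-day and 3.27 to fasted 28-day livers. Fasted 8-day livers held the highest of the other means in 31 members, fed 8-day in 16 and fasted 28-day in 13. Across the 60 members, which are not independent replicates, the ratio followed neither length (Spearman's rho -0.06) nor fed 28-day FPKM (0.16) closely. Its rho with the highest other mean, by which it is divided, was -0.29.

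The largest ratio belonged to TRINITY_DN14626_c0_g3_i1_4, a transcript of 2453 nucleotides. It had 33.2, 36.3 and 36.0 CPM in the fed 28-day libraries. The fed 8-day libraries held 1.68, 1.38 and 1.05 CPM, the fasted 8-day libraries 1.0, 2.0 and 2.28 CPM, and the fasted 28-day libraries 1.16, 2.39 and 1.58 CPM. It was thus at 1.0 to 2.39 CPM in 9 livers and steady in the 3 fed 28-day livers. The fed 28-day mean of 35.2 ± 1.70 CPM was 19.98 times the highest other mean.

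A transcript of 3796 nucleotides came next, with 229, 142 and 179 CPM in fed 28-day livers and 7.23 to 16.9 CPM in the other 9. Its mean was 11.7 times the fed 8-day mean of 15.6 ± 1.09 CPM. A transcript of 1931 nucleotides had 181, 179 and 235 CPM in fed 28-day livers and 8.82 to 22.7 CPM elsewhere, 10.9 times the fasted 8-day mean of 18.2 ± 4.89 CPM. Both thus stood at 142 CPM or more in every fed 28-day library and at 22.7 CPM or less in the other 9. The other 3 members at 8 times or more were less abundant. Transcripts of 3177 and 3162 nucleotides had means of 55.2 ± 3.65 and 64.2 ± 6.46 CPM in fed 28-day livers, 10 and 9.84 times the fed 8-day means of 5.51 ± 0.827 and 6.53 ± 0.684 CPM. The last of these, TRINITY_DN15780_c0_g2_i1_2, a transcript of 2172 nucleotides, had 13.4, 29.5 and 30.4 CPM in fed 28-day livers and at most 3.19 CPM elsewhere.

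**Figure D3:**
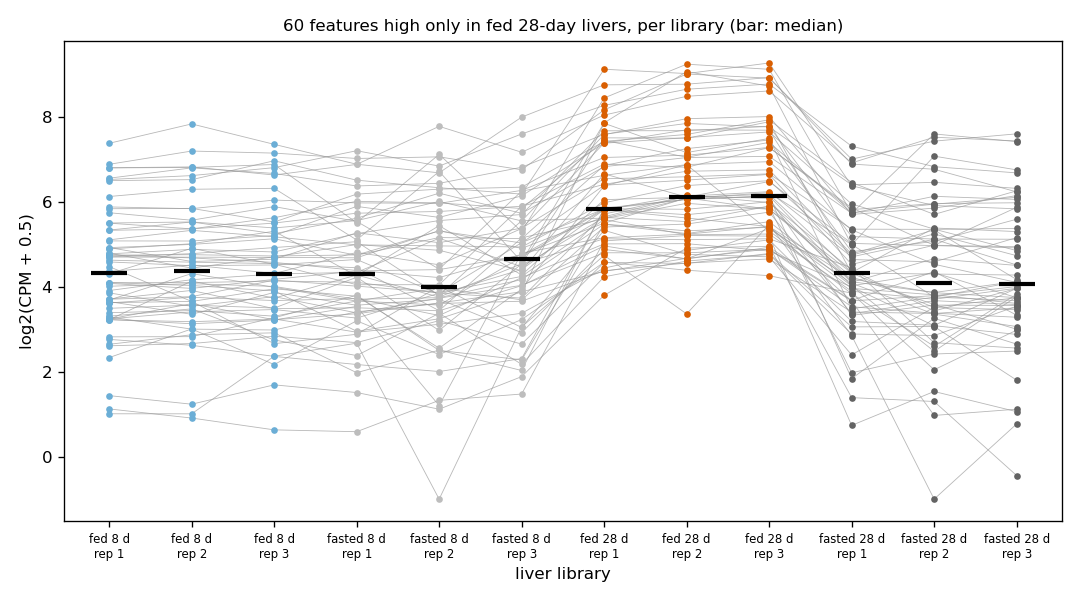
Level of the 60 features in each of the 12 liver libraries as log2(CPM + 0.5), with a point for each feature, a thin line joining the points of a feature and a black bar for the median. The median is 56.4 to 69.7 CPM in the fed 28-day libraries and 15.3 to 24.5 CPM in the other 9.

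The 3 fed 28-day livers were not alike in these features. The summed level was 6459, 7656 and 8053 CPM in replicates 1, 2 and 3. Replicate 1 had the lowest level of the 3 in 37 of the 60 members, and replicate 3 the highest in 38. Among all 2783 features of at least 20 CPM, replicate 3 was likewise most often the highest, in 50.1%. The low end of the order was not shared. In those features replicate 2 was lowest in 47.9% and replicate 1 in 38.9%, while replicate 2 was lowest in 18 members. The highest fed 28-day library was 1.28 times the lowest at the median. It was under 1.2 times in 17 members and 2 times or more in 4. All these values are relative to library size. TMM, the scaling of library sizes used in the edgeR test below, had factors of 0.84, 0.83 and 0.92 for replicates 1, 2 and 3. Division by these factors lowers replicate 3 against replicates 1 and 2. The order of the replicates was not counted under that scaling, so it is not read as a trait of the livers.

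The 4 members that differed most between the fed 28-day livers did not share a pattern. A transcript of 3139 nucleotides had 231, 533 and 420 CPM in replicates 1, 2 and 3, and TRINITY_DN15780_c0_g2_i1_2 was also lowest in replicate 1. A transcript of 850 nucleotides had 82.2, 116 and 39.3 CPM, lowest in replicate 3. A transcript of 563 nucleotides, at 26.1, 9.75 and 43.6 CPM, was lowest in replicate 2. In the last, the lowest fed 28-day library was 1.252 times the highest other library, which had 7.79 CPM.

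Spread within a group was wider in fasted than in fed livers. The median coefficient of variation over the members was 13.0% in fed 28-day and 9.59% in fed 8-day livers, against 24.3% in fasted 8-day and 23.6% in fasted 28-day livers. Over all features of at least 20 CPM in fed 28-day livers the medians were 12%, 9.25% (fed), 19.7% and 18.1% (fasted) in the same order. The members' medians were thus higher in both fasted groups. The rule kept each member's fasted means well below its fed 28-day mean, and the other features had no such limit. Fasted levels were not matched between the sets. These medians, and the shares over 3 times given next, are therefore not like for like. Whether the members vary more than features of equal fasted level was not tested. The highest of the 6 fasted libraries was over 3 times the lowest in 14 members, 23.3% of them, and in 11.4% of the 2783 features, where a library at 0 below any positive one counts as over 3 times.

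Whether the longer fast changed these features was a comparison the choice did not make, since the rule treated both fasted groups alike. It used the mean of all 6 fasted libraries and set an upper limit on each fasted mean and on each single fasted library. All 60 members were tested with edgeR's quasi-likelihood test, in a fit over all 32212 features with enough counts. None of the 60 passed at a Benjamini-Hochberg adjusted p under 0.05, and 0% of all features tested passed in this comparison. limma also called 0 members and 0 features, and DESeq2 called 0 members and 32 features, 0.0995% of those it gave an adjusted p. At an unadjusted p under 0.05 edgeR listed 5 members, 8.33%, against 2.78% of all features tested and 2.87% of those at 20 CPM or more. DESeq2 listed 8 members, 13.3%, against 3.78% of all features. limma listed 2 members, 3.33%, with either pseudocount, against 3.51% of all features with a pseudocount of 1 and 3.05% with 0.1. The edgeR count hung on single libraries and on the fit. It was 23 members, 38.3%, without replicate 2 of the fasted 8-day group, against 7.49% of all features, and 19 members, 31.7%, without replicate 1 of the fasted 28-day group, against 6.99%. Without any one of the other 4 fasted libraries it was 3 to 7. With only the 6 fasted libraries fitted it was 1 member, 1.67%, against 2.09% of all features. By library size alone it was 2 members, 3.33%, against 2.56%. With the other scalings tried, no filter on low counts or a replicate block it was 4 to 6. For DESeq2, limma and all edgeR fits but the first, the share among features of at least 20 CPM was not counted. How far the members differ from well expressed features in those fits is therefore not known. No member passed after adjustment in any of these fits, where the lowest edgeR adjusted p of a member was 0.622.

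The summed level of the members was 1901, 2130 and 2356 CPM in fasted 8-day livers, a mean of 2129 ± 228 (SD, n = 3), and 1944, 2130 and 2072 CPM in fasted 28-day livers, a mean of 2049 ± 94.9. The ranges overlapped, and the difference of -80.3 CPM (28 minus 8 days) gave p = 0.7 in an exact two-sided permutation test, which cannot go below 0.1 with 3 against 3 libraries. When replicate 3 of the fasted 8-day group was left out the difference was 33.4 CPM, so by library size its direction hung on that library. With other scalings, single libraries were not left out of this sum. Without the 3 fasted libraries that lay together it was -184 CPM, with 2 libraries left at 8 days and 1 at 28 days. In that fit, where the single library is taken to vary like the other groups, edgeR called 0 members, and a count of 0 from so few libraries says nothing about stability.

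Feature by feature, 43 members had a lower and 17 a higher fitted level after 28 than after 8 days of fasting. The median log2 fold change was -0.26, beside 0.01 over all features tested and -0.11 over the 2783 of at least 20 CPM. A negative value was found for 71.7% of the members and for 67.3% of those 2783, so well expressed features in general leaned the same way under this scaling. The 6 fasted libraries did not overlap between the days for 2 members (both lower at 28 days), 3.33% of the 60, against 6.64% of all features tested and 3.09% of those at 20 CPM or more. The members' share lay between these and rests on 2 features.

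**Figure D4:**
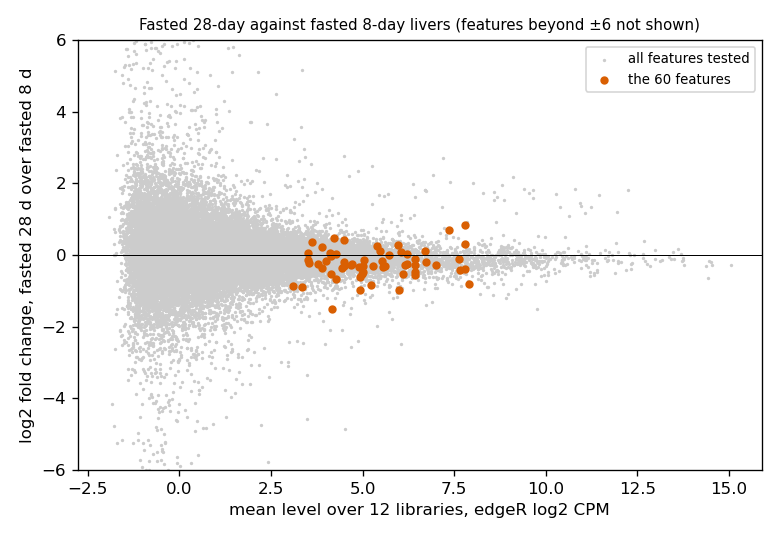
Log2 fold change of fasted 28-day over fasted 8-day livers from edgeR (vertical axis) against the mean level over 12 libraries in log2 CPM (horizontal axis), for all features tested (grey) and the 60 features (orange). The 60 lie between -1.51 and 0.84 within the grey cloud, and none passed the test.

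TRINITY_DN13681_c0_g1_i1_4, a transcript of 2668 nucleotides, had the lowest log2 fold change, -1.51 with an SE of 0.94 and an edgeR adjusted p of 1. The fasted 8-day libraries were at 11.1, 1.80 and 27.1 CPM and its fasted 28-day libraries at 12.2, 1.46 and 1.67 CPM, so 2 libraries at 28 days lay below all at 8 days and replicate 1 at 28 days lay among them. In fed 8-day livers it was steady at 8.87, 8.23 and 8.79 CPM, and in fed 28-day livers it was at 35.1, 37.1 and 42.3 CPM. Its log2 fold change was -0.42 when replicate 3 of the fasted 8-day group was left out, and -3.44 when replicate 1 of the fasted 28-day group was. Without the 3 fasted libraries that lay together it was -0.74. It passed in no alternative (adjusted p = 0.625 to 1, limma and DESeq2 included).

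The member with the highest log2 fold change was TRINITY_DN16857_c0_g1_i20_3, of 4228 nucleotides, at 0.84 with an SE of 0.45 and an edgeR adjusted p of 1. Its fasted 8-day libraries had 44.9, 138 and 38.8 CPM and its fasted 28-day libraries 52.3, 193 and 170 CPM. The same 3 libraries (replicate 2 at 8 days, replicates 2 and 3 at 28 days) were high here and low in TRINITY_DN13681_c0_g1_i1_4. This feature had 347, 602 and 553 CPM in fed 28-day livers and 110, 111 and 117 CPM in fed 8-day livers. With single fasted libraries left out, its log2 fold change ran from 0.59 to 1.45, the latter when replicate 2 of the fasted 8-day group was missing, and without the 3 that lay together it was 0.23. It passed in no alternative (adjusted p = 0.622 to 1, limma and DESeq2 included).

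Other members divided the fasted livers in the same places. The transcript of 3139 nucleotides had 33.8, 104 and 23.5 CPM in fasted 8-day and 31.1, 134 and 107 CPM in fasted 28-day livers, high in the libraries where TRINITY_DN16857_c0_g1_i20_3 was high. A transcript of 3604 nucleotides had 45.9, 20.8 and 75.4 CPM and then 39.9, 22.6 and 16.6 CPM, low in those libraries. At the steady end, a transcript of 3479 nucleotides was at 38.0, 32.3 and 41.0 CPM and then at 40.3, 40.2 and 40.8 CPM. These 3 were picked after their values were seen, to show the range. Across the members, replicate 3 of the fasted 8-day group had the highest level of the 6 fasted libraries in 29. Replicate 3 of the fasted 28-day group had the lowest in 20. Neither was counted over other features, so nothing particular to the members is read from them. Replicate 3 of the fasted 8-day group was also the highest of all 9 libraries outside the fed 28-day group in 28 members, 46.7%. Among the 2783 features of at least 20 CPM it was so in 12.9%. These shares are not like for like, since only the members had fed 8-day means kept close to the fasted mean. Replicate 3 of the fed 8-day group was the highest in 1 member and in 24.9% of the 2783 features. In summed level, replicate 3 of the fasted 8-day group was the highest fasted library, at 2356 CPM. This was far below the lowest fed 28-day library, at 6459 CPM.

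The members were long for this assembly, as were features of at least 20 CPM in general. Their lengths ran from 530 to 5250 nucleotides with a median of 2354, beside a median of 598 over all features and 1910 over the 2783 features of at least 20 CPM. The last number of the identifier, which runs from 1 to 4 and whose meaning the labels do not give, was 1 in 22 members, 2 in 9, 3 in 10 and 4 in 19. These are 36.7%, 15.0%, 16.7% and 31.7% of the members. Among the 2783 features, 28.4% ended in 1, 23.1% in 2, 26.9% in 3 and 21.5% in 4. The higher shares of 1 and 4 were picked out after the values were seen. Nothing particular to the members is read from them. If the numbers stand for separate assemblies that were joined, near-identical features could share reads between them, so the level of a single member is uncertain to that degree, which was not tested.

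Each of the 60 members was the only feature of its Trinity gene with its last number, as was each of the 42353 features, so no isoforms of a member could be compared. Trinity also sorts its genes into components, which are groups of sequences that share stretches of letters, and these allowed a look at the nearest relatives of a member in the assembly. This grouping was chosen after the data were seen. A component with further features was found for 21 of the 60 members, 35.0%, against 26.1% of the 2783 features of at least 20 CPM. These 21 components held 34 other features, none of them a member, and 19 of the 34 were under 5 CPM in every group.

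The 15 partners at 5 CPM or more belonged to 10 members of the 60. A fed 28-day mean at least 2 times each other mean was found in 1 of the 15, 6.67%, beside 3.33% of 2192 features of at least 5 CPM that were not alone in their component. In 5 of the 15, 33.3%, the fed 28-day mean was the highest of the 4, beside 18.8% of the 2192. The median ratio of the fed 28-day mean to the highest other mean was 0.84 over the partners and 0.61 over the 2192. With 15 partners, nothing particular to them is read from these shares. The 19 partners under 5 CPM were left out of them. Their ratios, from low levels, ran from 0.06 to 11.2, some above and some below the limit of 2.

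Of the partners at 5 CPM or more, the 1 at 2 times or more was the neighbour of the 563-nucleotide member. That partner, of 1158 nucleotides, had 341, 318 and 395 CPM in fed 28-day livers, 56.9, 26.1 and 37.0 CPM in fed 8-day livers, 23.5, 2.0 and 43.1 CPM in fasted 8-day livers and 26.0, 1.0 and 2.9 CPM in fasted 28-day livers. Its fed 28-day mean was 8.78 times the fed 8-day mean, and it was no member because its fed 8-day mean lay above the band around the fasted mean. The 563-nucleotide member followed it among the fasted livers, with 5.86, 0 and 7.79 CPM at 8 days and 6.71, 0 and 1.2 CPM at 28 days. In both features replicate 2 was the lowest library of each fasted group.

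**Figure D5:**
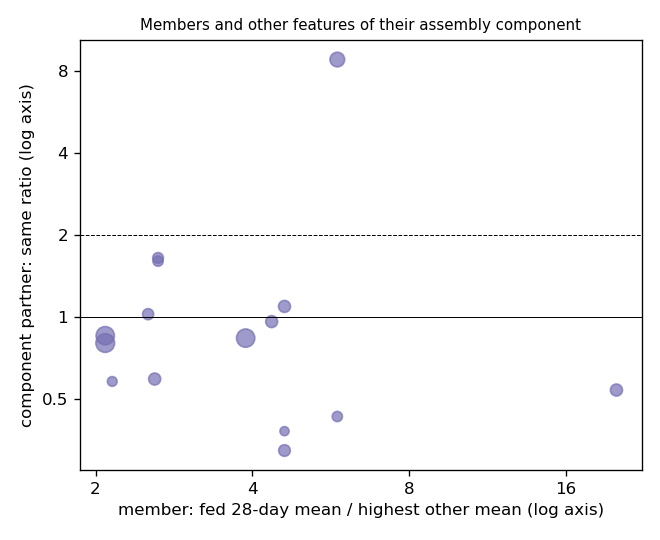
Ratio of the fed 28-day mean to the highest other group mean for 15 partner features of at least 5 CPM (vertical axis) against that of the member in the same assembly component (horizontal axis), both on log axes, with larger points for more abundant partners. A single partner, at 8.78, lies above the dashed line at 2, and the solid line marks equality of the groups at 1.

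In 2 components the partners were among the most abundant transcripts of the liver. A member of 5250 nucleotides had 191, 229 and 216 CPM in fed 28-day livers and 78.9 to 112 CPM elsewhere. Its partner of 1607 nucleotides stood at group means of 24187, 21797, 19427 and 19061 CPM in fed 8-day, fasted 8-day, fed 28-day and fasted 28-day livers, and a further partner of 1043 nucleotides at 13280, 14167, 12379 and 14487 CPM. A member of 3050 nucleotides had 190, 247 and 256 CPM in fed 28-day livers and 41.2 to 70.1 CPM elsewhere. Its partner of 5634 nucleotides had means of 10819, 12206, 12333 and 14731 CPM in the same order. In neither component did the abundant partners peak in fed 28-day livers, where the member had its high level.

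The feature with the largest ratio, TRINITY_DN14626_c0_g3_i1_4, had a partner of 2067 nucleotides that was highest in fed 8-day livers. That partner was at 35.3, 37.5 and 47.9 CPM in fed 8-day, 23.0, 20.3 and 22 CPM in fed 28-day, 8.0, 12.6 and 17.4 CPM in fasted 8-day and 15.2, 10 and 12.1 CPM in fasted 28-day livers. All fed 8-day libraries of this partner lay above its fed 28-day libraries, while the rule itself set the reverse order for the member. Further partners in this component were all under 5 CPM. Those of 1115 and 667 nucleotides were highest in fed 28-day livers, at means of 3.82 and 2.53 CPM. The partner of 398 nucleotides was at 0.30 CPM or less in every group. A member of 2014 nucleotides, at 203, 203 and 218 CPM in fed 28-day and 26.8 to 51.4 CPM in the other livers, had a partner of 2458 nucleotides that was lowest in fed 28-day livers, at a mean of 9.31 CPM against 12.6 to 28.7 CPM in the other groups. These pairs were also picked after their values were seen.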

How the data were processed

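The authors deposited 2 tables of 42353 features by 12 liver libraries, of estimated counts and of FPKM. Per the labels' protocols, stranded mRNA libraries were read as pairs of 125 or 150 nucleotides. Trimmomatic and Bowtie2 were used, per the submitters' processing notes. The sources used here give no assembler, abundance program, annotation or instrument for each library. Columns were matched through group codes in the design text and replicate numbers. Feature lengths were inferred from counts divided by FPKM and by the column sum. A constant for each library was chosen so that these lengths came out whole, and their rounded median over libraries was taken.

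Members and lists were chosen with earlier results of these data known. CPM was each estimated count over its column sum. Estimated counts were rounded for the count tests. The design had assumed counts. All 12 libraries were fitted as 4 group means with edgeR 4.0.16 in R 4.3.3 (filterByExpr, TMM factors 0.83 to 1.22, robust), for fasted 28 against 8 days, with Benjamini-Hochberg adjustment over 32212 features. The test was also run on simulated counts, with the outcome not given here. A count of 0 members called therefore does not show that the members were unchanged. Alternatives were DESeq2 1.42.0, limma 3.58.1 on log2(FPKM + 1) and log2(FPKM + 0.1), other scalings, no filter, a replicate block and leaving out libraries. Identifiers were named by rule: the highest fed 28-day FPKM, the highest ratio, and the highest and lowest fasted fold change, and one more is given because another member has its length. Partner features and members called by length were picked after their values were seen. Marker and pathway lists were not run, since identifiers have no gene names. No 2 libraries of a group agreed within sampling noise (chi-square 12.3 to 65.7 per feature). The labels do not say whether libraries are separate fish, so p-values measure the spread between libraries. In the main fit a single spread per feature was taken from all 12 libraries, fed ones included. For the members the fasted groups spread more than the fed ones at the median. The spread used can therefore be too small for the fasted comparison.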

Additional observations from a re-analysis of the deposited data

How the results depend on the processing

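The number of members depended on the limits and on scaling. With library sizes scaled by TMM it was 99, of which 59 were among the 60. With FPKM in place of CPM it was 50, with 40 of the 60. It was 39 from 50 CPM, 85 from 10 CPM, 23 at 3 times each other mean, 35 with the narrower of the bands tried, 151 with no band and 61 with no condition on single libraries. Leaving out each library gave 49 to 70. Of alternatives added after the data were seen, it was 59 without the fasted trio described in the report (38 of the 60 among them) and 324 with the fed 8-day libraries not used. TMM moved the median log2 ratio of fed 28-day to the other 9 libraries over all features from -0.44 to -0.14. The members' median ratio of the fed 28-day mean to the highest other mean was 2.63 by library size and 3.14 with TMM. On FPKM, 58 of the 60 kept a ratio of at least 2. The share of counts in fed 28-day livers was 0.547% of summed FPKM, 1.37% for the members found with TMM, and 0.706% to 0.785% without single libraries.

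For fasted 28 against 8 days, no alternative called a member, and the median log2 fold change was -0.40 to -0.10 over all of them. The summed difference was -236 CPM with TMM and -48.1 on FPKM. By library size it was -194 to 33.4 CPM without single libraries, the positive value without replicate 3 of the fasted 8-day group. The cause was not tested, and single libraries were not left out with TMM or FPKM. With the replicate number as a block, 0 members passed, the median was -0.24, and the summed difference of -80.3 CPM gave p = 1 by exact sign flips, which cannot go below 0.25. Deviations of same-numbered fasted libraries correlated at 0.63, 0.62 and -0.53. These mixed signs do not settle whether the numbers pair the samples. At this depth 1 CPM is under 20 counts, so ratios of members near 1 to 2 CPM outside fed 28-day livers are the least precise.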
